A study of Rattus norvegicus with 6 samples.

Results

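Striatal projection neurons read dopamine through a short signalling chain, and 9 genes of that chain were followed in rat brain tissue after bleeding within the brain, called intracerebral hemorrhage or ICH. The 9 genes were Drd1, Drd2, Adora2a, Gnal, Rgs9, Adcy5, Pde10a, Ppp1r1b and Arpp21. They were found as the probes whose transcript accession in the scanner files maps by RefSeq to these genes, which gave 14 probes of the 30367 on the array and 9 of the 15443 genes with a symbol. Transcript levels were measured on 6 single-channel Agilent arrays, 1 per sample, with 3 arrays from rats with ICH and 3 from sham-operated rats. By the labels, the samples with ICH are of peripheral brain tissue, around the hematoma by the series title, and those of sham-operated rats of brain tissue. All samples carry the label day 1, and all rats had the same housing. The brain region dissected, the strain and the way the bleed was made are not given in the sources used here, so a difference in the region sampled and an effect of the bleed cannot be told apart. Each array is labelled as a biological replicate, with no word on pooling.

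Dopamine acts on the neurons of the striatum through opposing receptors. The D1 receptor, on neurons of the direct pathway, couples to a stimulatory G protein and raises cyclic AMP (cAMP), while the D2 receptor, on neurons of the indirect pathway, lowers it. The indirect-pathway neurons also carry the adenosine receptor Adora2a, which raises cAMP. In the striatum the stimulatory G protein subunit is largely Gnal and the main adenylyl cyclase is Adcy5. Pde10a breaks the messenger down, Rgs9 shortens G protein signalling, and the kinase PKA, which cAMP activates, phosphorylates Ppp1r1b and Arpp21.

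Sequences around annotated transcript starts are shown because the members varied together across arrays. In addition, cAMP signalling is known to act on genes through the cAMP response element. RefSeq windows of 250 bases before to 50 bases after a transcript start, build GRCr8, were found for 7 of the 9 genes, as 8 windows. The full element TGACGTCA, which reads the same on both strands, was in 0 of the 8 windows, against 1.83% of 33469 windows of the same length. Its core TGACG, searched on both strands and contained in the full element, was in 1 of the 8 windows, against 21.2% of all windows. That was 1 of the 2 windows of Pde10a, with 2 matches, and the other Pde10a window had 0. The GC box GGGCGG, searched on both strands, was in 5 of the 8 windows, both Pde10a windows among them, against 33.06% of all windows. The GC content was 47.0% to 70.7% in the members' windows (median 66.0%), against a median of 51.7% in all windows. A match is a description of letters, and no match says only that the letters are not in the window. The windows follow annotated starts, and whether each holds the promoter of its gene was not tested, also for Drd1. In the windows of 4 members below, written 5' to 3' on the gene's strand, capitals mark matches to TGACG or GGGCGG on either strand. The Drd1 window has none, and of the Pde10a windows the 1 with TGACG is shown.
Drd1, chr17:10546354-10546653, plus strand: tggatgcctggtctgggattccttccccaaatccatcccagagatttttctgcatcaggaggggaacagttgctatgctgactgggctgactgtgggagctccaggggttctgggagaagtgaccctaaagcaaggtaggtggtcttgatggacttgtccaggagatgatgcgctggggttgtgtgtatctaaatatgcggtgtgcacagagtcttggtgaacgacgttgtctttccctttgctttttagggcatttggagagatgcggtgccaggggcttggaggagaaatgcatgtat
Drd2, chr8:58605153-58605452, plus strand: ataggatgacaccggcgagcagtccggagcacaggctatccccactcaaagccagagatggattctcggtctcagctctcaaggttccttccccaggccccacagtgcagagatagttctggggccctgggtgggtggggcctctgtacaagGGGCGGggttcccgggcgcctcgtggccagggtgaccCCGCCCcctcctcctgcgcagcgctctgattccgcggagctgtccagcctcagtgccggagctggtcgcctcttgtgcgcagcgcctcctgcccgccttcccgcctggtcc
Rgs9, chr10:94770338-94770637, minus strand: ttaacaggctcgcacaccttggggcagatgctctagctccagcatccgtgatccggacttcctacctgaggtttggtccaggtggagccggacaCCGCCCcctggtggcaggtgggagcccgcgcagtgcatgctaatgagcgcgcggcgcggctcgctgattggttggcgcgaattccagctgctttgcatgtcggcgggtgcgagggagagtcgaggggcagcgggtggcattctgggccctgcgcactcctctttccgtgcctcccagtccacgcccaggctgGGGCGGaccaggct
Pde10a, chr1:54765619-54765918, minus strand: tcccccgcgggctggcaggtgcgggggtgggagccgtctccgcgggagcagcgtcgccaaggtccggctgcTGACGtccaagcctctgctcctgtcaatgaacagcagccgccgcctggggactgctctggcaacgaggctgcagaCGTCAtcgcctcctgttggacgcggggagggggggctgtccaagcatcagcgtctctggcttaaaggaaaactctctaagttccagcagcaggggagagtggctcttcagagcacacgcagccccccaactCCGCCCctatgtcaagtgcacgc

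Values are the deposited log2 signals relative to the 75th percentile of each array, and differences are ICH minus sham on the log2 scale, ± SE, with n = 3 arrays in each group. All 14 probes were well above background on all 6 arrays, and 0 spots were saturated. A difference was called at an adjusted p under 0.05 by limma with Benjamini-Hochberg adjustment over the 24650 probes tested. The 9 genes had a median difference of −0.92, against −0.04 over all probes tested. The mean was lower in ICH for 9 of 9 genes, against 54.3% of all probes. However, 0 of the 9 genes were called, against 0.0% of all probes in either direction. At an unadjusted p under 0.05, 6 of the 9 were lower, against 8.82% of all probes lower and 6.18% higher, together 3699 probes, and 7.67% lower among genes with 1 probe each. All ICH values lay below all sham values for 5 of the 9 genes (Drd1, Rgs9, Adcy5, Pde10a and Arpp21), against 16.7% of all probes and 16.2% of genes with 1 probe each. None was above on all arrays, against 10.8% of all probes. The members were chosen with earlier results of these data known, so these shares describe the 9 genes and are not a test. The smallest exact two-sided permutation p for 3 against 3 arrays is 0.1. In whole tissue, fewer cells of a type and less RNA per cell cannot be told apart.

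Before the single genes, 2 arrays need naming, sham 3 and ICH 2. Sham 3 was below both other sham arrays for 8 of the 9 genes, the exception being Gnal. The median over the 9 genes, relative to each gene's sham mean, was −0.72, −1.28 and −0.75 on ICH 1 to 3, against 0.29, 0.31 and −0.59 on sham 1 to 3. Sham 3 was nearer to the ICH mean than to the mean of the other sham arrays for 6 genes. Over all probes, sham 3 differed from the mean of the other sham arrays by a median of 0.00. The SD among sham arrays had a median of 0.51 over the 9 genes, against 0.14 over all probes, and 6.73% of all probes had a sham SD of at least the members' median. Among ICH arrays the median SD was 0.39 over the 9 genes and 0.31 over all probes. Within an array, the 11 member probes with several spots had an SD between spots of 0.00 to 0.18, with a median of 0.04. The gap between sham 3 and the mean of the other sham arrays had a median of −0.89 over the 9 genes. With sham 3 left out, 8 of the 9 genes had all ICH values below all sham values, against 19.7% of all probes in that setting, and the median difference was −1.13. ICH 2 stood apart over all probes, at −106.7 on the first principal component (52.3% of the variance), where the other arrays lay between −10.3 and 34.4. It was also the lowest ICH array for 7 of the 9 genes. The shares of all probes with these orders of sham 3 and ICH 2 were not counted. With ICH 2 left out, 5 of the 9 genes had all ICH values below all sham values, against 24.0% of all probes in that setting, and the median difference was −0.72.

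**Figure D1:**
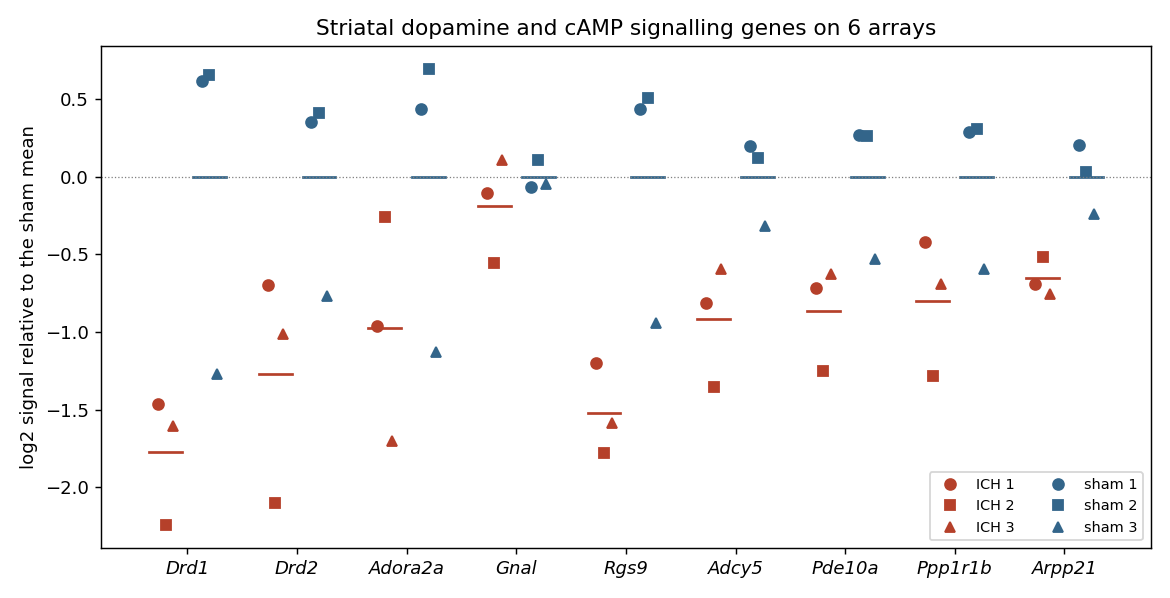
Log2 signal of each of the 9 genes (brightest probe) on every array, relative to the gene's sham mean, for ICH arrays (red, left) and sham arrays (blue, right); symbols give the replicate number and short lines the group means of 3 arrays. Sham 1 and sham 2 lie above every ICH value for each gene except Gnal, and sham 3 lies nearer to the ICH mean than to the mean of the other sham arrays for 6 genes.

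Among the receptors, Drd1, the D1 dopamine receptor gene, had the largest difference of the 9 genes. Its single probe read −4.16, −4.94 and −4.30 on ICH 1 to 3, against −2.08, −2.04 and −3.97 on sham 1 to 3. The groups did not overlap, though ICH 1 minus sham 3 was only −0.19. Drd1 was 3.41-fold lower in ICH (−1.77 ± 0.56, limma adjusted p = 0.289). The probe has 1 spot on each array, and the error that the scanner software gives for it was 10.01% to 11.25% of the signal.

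Drd2, the D2 dopamine receptor gene, read 0.61, −0.80 and 0.29 on ICH 1 to 3, against 1.66, 1.72 and 0.54 on sham 1 to 3. ICH 1 lay just above sham 3, so the groups overlapped. Drd2 was 2.41-fold lower in ICH (−1.27 ± 0.47, limma adjusted p = 0.313). Its dimmer probe gave −1.39 ± 0.63, with −3.70, −5.40 and −4.48 on the ICH arrays, against −2.70, −2.40 and −4.30 on the sham arrays. Both probes put ICH 2 lowest of the 6 arrays.

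Adora2a, the adenosine receptor gene of indirect-pathway neurons, read −1.44, −0.74 and −2.18 on ICH 1 to 3, against −0.04, 0.22 and −1.61 on sham 1 to 3. Here ICH 2 was the highest of the ICH arrays, where it was the lowest for 7 of the 9 genes. The groups overlapped, as sham 3 was below ICH 1 and ICH 2, and the difference was −0.97 ± 0.58 (limma adjusted p = 0.444). It was −1.54 without sham 3, −0.61 without ICH 3 and −0.63 without sham 2. Adora2a and Drd2, which the same neurons express, had a Pearson correlation of 0.54 over the 6 arrays, where Drd1 and Drd2 had 0.95.

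The receptors of the direct and indirect pathways were set against each other as Drd1 minus the mean of Drd2 and Adora2a, each relative to its sham mean. That value was −0.63, −1.06 and −0.25 on ICH 1 to 3, against 0.22, 0.10 and −0.32 on sham 1 to 3. ICH was lower by a mean of −0.65, with overlap between ICH 3 and sham 3, and the exact two-sided permutation p over 20 splits was 0.2. As 0.1 is the smallest p this test can give, it could not reach 0.05 and leaves a difference between the pathways undecided.

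Of the G protein genes, Rgs9, whose product speeds the switching off of G proteins, had the second largest difference of the 9 and Gnal the smallest. Rgs9 read 0.53, −0.06 and 0.14 on ICH 1 to 3, against 2.16, 2.23 and 0.78 on sham 1 to 3. No ICH value reached the lowest sham value, and Rgs9 was 2.87-fold lower in ICH (−1.52 ± 0.42, limma adjusted p = 0.288). Gnal, the stimulatory G protein subunit that couples the D1 and adenosine receptors to the cyclase, read −0.60, −1.05 and −0.39 on ICH 1 to 3, against −0.56, −0.39 and −0.54 on sham 1 to 3. Only ICH 2 stood apart, and the difference was −0.19 ± 0.20 (limma adjusted p = 0.652), or 0.00 without ICH 2. Gnal had the smallest sham SD of the 9 genes (0.10), and centring on spike-in probes turned its difference to 0.19.

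Among the enzymes that make and break cAMP, Adcy5 read 1.06, 0.52 and 1.28 on ICH 1 to 3, against 2.07, 1.99 and 1.56 on sham 1 to 3. Every ICH value was below every sham value, with a difference of −0.92 ± 0.25 (limma adjusted p = 0.288). Pde10a, the phosphodiesterase concentrated in striatal projection neurons, read 2.05, 1.51 and 2.14 on ICH 1 to 3, against 3.03, 3.03 and 2.24 on sham 1 to 3. The groups did not overlap, with ICH 3 minus sham 3 at −0.10, and the difference was −0.86 ± 0.29 (limma adjusted p = 0.293). The other Pde10a probe gave −0.81 ± 0.36, with sham 3 at 0.22 inside the ICH range of −0.07 to 0.43. The synthesis and breakdown enzymes were both lower in ICH, and their values had a Pearson correlation of 0.98 over the 6 arrays.

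At their brightest probes, the PKA substrates had smaller differences than the other genes except Gnal, and their probes did not always go together. Ppp1r1b, which inhibits protein phosphatase 1 once PKA has phosphorylated it, read 1.91, 1.05 and 1.64 on ICH 1 to 3, against 2.62, 2.64 and 1.74 on sham 1 to 3. ICH 1 was above sham 3, and the difference was −0.80 ± 0.33 (limma adjusted p = 0.340), with −0.97 ± 0.39 at the other probe. Arpp21, a cAMP-regulated phosphoprotein, read 2.27, 2.44 and 2.21 on ICH 1 to 3 at its brightest probe, against 3.17, 2.99 and 2.73 on sham 1 to 3. The groups did not overlap there, and the difference was −0.65 ± 0.16 (limma adjusted p = 0.288).

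A further Arpp21 probe with the same transcript accession gave −0.90 ± 0.37, at 0.79, 2.09 and 1.25 on ICH 1 to 3, against 2.60, 2.34 and 1.89 on sham 1 to 3. The third Arpp21 probe, assigned to another transcript accession of the gene, was the only one of the 14 probes with a higher mean in ICH (0.27 ± 0.22, limma adjusted p = 0.551). It read 0.66, 1.21 and 0.60 on ICH 1 to 3, against 0.72, 0.32 and 0.62 on sham 1 to 3, so the groups overlapped. At the level of probes, 13 of 14 were lower in ICH, against 54.3% of all probes. At an unadjusted limma p under 0.05, 8 of 14 were lower, against 8.82% of all probes. All ICH values lay below all sham values for 5 of 14, against 16.7% of all probes. The 14 probes read 9 genes on the same 6 arrays, so they are not independent.

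The members varied together across the arrays, with exceptions. Over the 36 pairs of genes, Pearson correlations on the 6 arrays ran from −0.10 (Gnal with Adora2a) to 0.99 (Drd2 with Ppp1r1b), with a median of 0.82. Among the 6 genes other than Gnal, Adora2a and Arpp21, a set chosen after the values were seen, the lowest of 15 correlations was 0.91. The arrays share their slide and scan, and the group difference enters these values. Of all other genes, the 10 whose 6 values were most like the mean of the members, by Pearson correlation, were Cul5, Dnaaf9, Atp6ap1l, Penk, Mme, Dnajb12, Chrm4, Tulp2, Dlx5 and Dcaf5, at 0.98 to 1.00. As the top of a ranking over only 6 values, such correlations are partly a product of the selection. The differences of these 10 genes ranged widely, at −1.34 for Tulp2, −1.25 for Dlx5 and −0.10 for Dnajb12.

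Further genes of the pathway and other striatal markers were counted from lists, 122 genes of which 108 were tested. Of these, 67 were lower and 41 higher in ICH, against 54.3% of all probes lower, with a median of −0.18 and 0 called. At an unadjusted limma p under 0.05, 21 were lower and 12 higher, against 8.82% and 6.18% of all probes. The same shares stand beside the list counts that follow. Of 8 receptors tested, 3 were lower and 5 higher. Chrm1, a muscarinic receptor gene that cortical neurons also express, differed by 1.08 ± 0.27 (limma adjusted p = 0.288).

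Of 17 G protein and RGS genes, 11 were lower and 6 higher, and Gng7, a G protein gamma subunit that partners Gnal in the striatum, read −2.03, −2.04 and −1.996 on ICH 1 to 3, against −0.67, −0.32 and −1.70 on sham 1 to 3. Its difference was −1.12 ± 0.35 (limma adjusted p = 0.289), with no overlap, while Gnai2, of the inhibitory subunits, differed by −0.36 ± 0.12. Of 8 other adenylyl cyclases tested, 3 were lower and 5 higher, with a median of 0.08 and 0 at an unadjusted p under 0.05. Adcy4 differed by 0.55 ± 0.37 and Adcy6 by −0.20 ± 0.18. Of 15 other phosphodiesterases 9 were lower and 6 higher. Pde1b, the calmodulin-dependent form abundant in the striatum, differed by −0.54 ± 0.24, Pde2a by −0.42 ± 0.14 and Pde8a by 1.07 ± 0.35. Pde8a was dim, at −7.32 to −5.40 over the arrays, and its groups overlapped, with ICH 2 at −6.47 and sham 3 at −6.46.

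Subunits, inhibitors and anchors of PKA were lower in 11 of 12 cases, with a median of −0.27. The anchor gene Akap5 differed by −0.89 ± 0.35 with overlap at sham 3, and the inhibitor gene Pkig by −0.59 ± 0.16, where its other probe reached 0.08. Of 16 phosphatase genes and regulators 11 were lower and 5 higher. Ppp3r1, the regulatory subunit of calcineurin, differed by 0.86 ± 0.22, and Ppp1r9a, a neuronal partner of protein phosphatase 1, by −0.83 ± 0.22 (limma adjusted p = 0.288 for both). Of 7 CREB family and exchange factor genes 2 were lower and 5 higher, with Crem at 0.26 ± 0.14 and Atf1 at −0.18 ± 0.13, where the other Atf1 probe gave 0.64.

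Of 7 genes of dopamine synthesis, transport and breakdown 2 were lower and 5 higher. Maob, the monoamine oxidase of glia, differed by −0.40 ± 0.15. Of 18 other markers of striatal projection neurons 15 were lower and 3 higher, with a median of −0.69, 8 lower at an unadjusted p under 0.05 and 0 called. Rasd2, a GTP-binding protein of the striatum, differed by −0.92 ± 0.21 and the kinase gene Dclk3 by −1.003 ± 0.25, both without overlap. The peptide genes Penk, Tac1 and Pdyn stood at −1.02 ± 0.30, −0.91 ± 0.38 and −0.44 ± 0.26. The groups did not overlap for Penk but did for Tac1 and Pdyn, where ICH 3 was above sham 3.

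Markers of other cells were read on the same arrays. The 18 other striatal markers had medians of −0.53, −0.80 and −0.42 on ICH 1 to 3, against 0.14, 0.30 and −0.41 on sham 1 to 3, so sham 3 was again at the level of an ICH array. Of 12 general neuron markers 5 were lower and 7 higher, and their list medians were 0.17, −0.08 and 0.20 on ICH 1 to 3, against 0.00, −0.04 and 0.03 on sham 1 to 3. The brightest, Uchl1 and Eno2, were among the 5 lower ones, at −0.48 ± 0.16 and −0.14 ± 0.12, and the other Eno2 probe gave 0.06. Cortical projection neuron markers were higher in 9 of 10 cases, with medians of 0.91, 0.98 and 0.79 on ICH 1 to 3, against 0.29, −0.35 and 0.14 on sham 1 to 3. Neurod2 differed by 0.89 ± 0.29 and Nrgn by 0.26 ± 0.18. On sham 3 the cortical list was not displaced, while the members were.

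Striatal interneuron markers were lower in 8 of 9 cases with a median of −0.21, and the brightest, Pvalb and Npy, differed by −0.05 ± 0.18 and −0.21 ± 0.18. Of 8 oligodendrocyte markers 8 were lower, of 10 myeloid markers 4, of 8 astrocyte markers 6 and of 6 endothelial markers 5. List medians of oligodendrocyte markers were 0.28, −0.81 and −0.03 on ICH 1 to 3, against −0.26, 0.12 and 0.09 on sham 1 to 3. Those of myeloid markers were 0.04, 0.58 and −0.40 on ICH 1 to 3, against −0.06, 0.05 and 0.04 on sham 1 to 3. Oligodendrocyte and myeloid medians thus moved most on ICH 2, the array with the lowest member median. Those of astrocyte markers were −0.34, −0.04 and −0.28 on ICH 1 to 3, against 0.04, −0.08 and 0.03 on sham 1 to 3. Endothelial markers had medians of −0.37, −0.52 and −0.37 on ICH 1 to 3, against 0.06, −0.06 and 0.02 on sham 1 to 3. The median of 7 thalamic markers was lowest on ICH 2 and sham 1, at −1.11 and −1.20, and that of 6 choroid plexus markers on sham 1, at −1.04. Of 3 erythroid markers, 2 were higher in ICH, with a hemoglobin gene, Hbb, at 0.64 ± 0.31 and its other probe at 2.41. The part of cell makeup in the members' differences was not tested. With each array centred on the general neuron markers, 8 of the 9 genes had all ICH values below all sham values, against 25.9% of all probes in that setting. That centring also moved the median difference of all probes to −0.27, from −0.04. Centring on spike-in probes moved it to 0.34 and left 3 genes without overlap, against 2.6% of all probes.

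**Figure D2:**
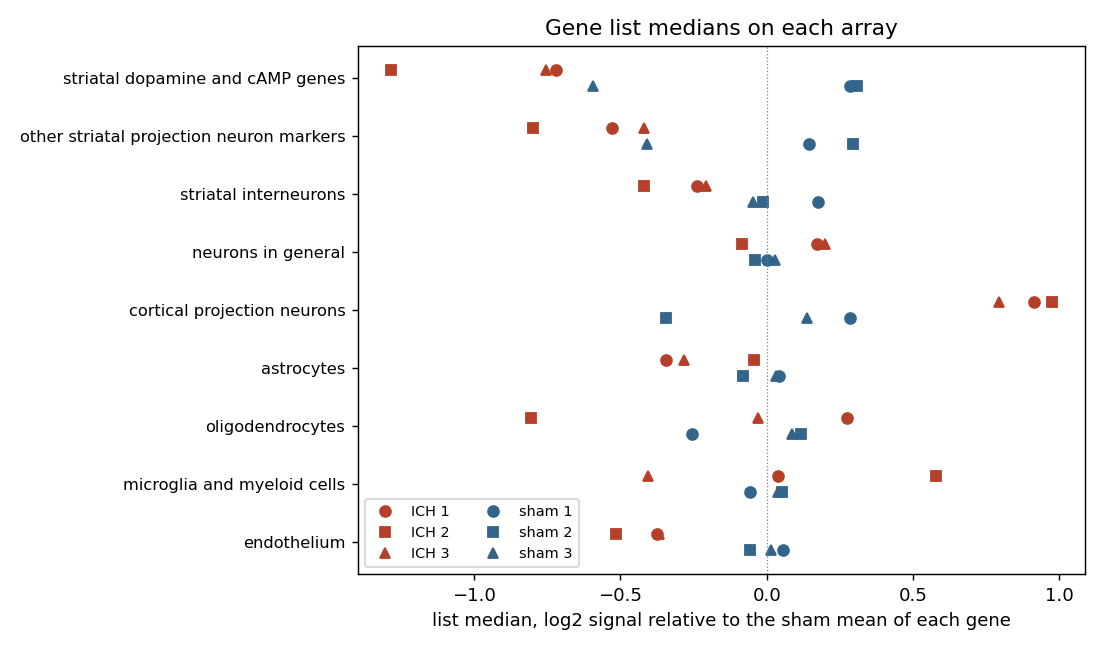
Median of each gene list on every array, as log2 signal relative to each gene's sham mean (x axis), for ICH arrays (red, upper) and sham arrays (blue, lower), with symbols for the replicate number. The 9 dopamine and cAMP genes lie at −0.72 to −1.28 on the ICH arrays and at −0.59 on sham 3, and the cortical list lies at 0.79 to 0.98 on the ICH arrays.

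Single arrays moved the sizes. Leaving out each array in turn gave differences of −2.41 to −1.44 for Drd1, −1.65 to −0.86 for Drd2, −1.99 to −1.27 for Rgs9, −1.08 to −0.70 for Adcy5 and −1.13 to −0.67 for Pde10a. With all arrays, 6 members were lower at an unadjusted p under 0.05, against 8.82% of all probes. Without ICH 2 there were 3, against 11.2% of all probes in that setting. There were 3 without sham 1 and 3 without sham 2, against 3.07% and 5.56% of all probes, and 8 without sham 3, against 4.43%. ICH 2, ICH 3 and no sham array lay in the other row of the slide, and within the row that holds both groups ICH 1 minus sham had a median of −0.72 over the 9 genes. With the slide row as a block, 1 member, Arpp21, was lower at an unadjusted p under 0.05 (−0.69 ± 0.24, limma adjusted p = 0.384), against 6.7% of all probes. In that fit Drd1 differed by −1.46 ± 0.86, Rgs9 by −1.20 ± 0.62, Drd2 by −0.70 ± 0.65 and Ppp1r1b by −0.42 ± 0.46.

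**Figure D3:**
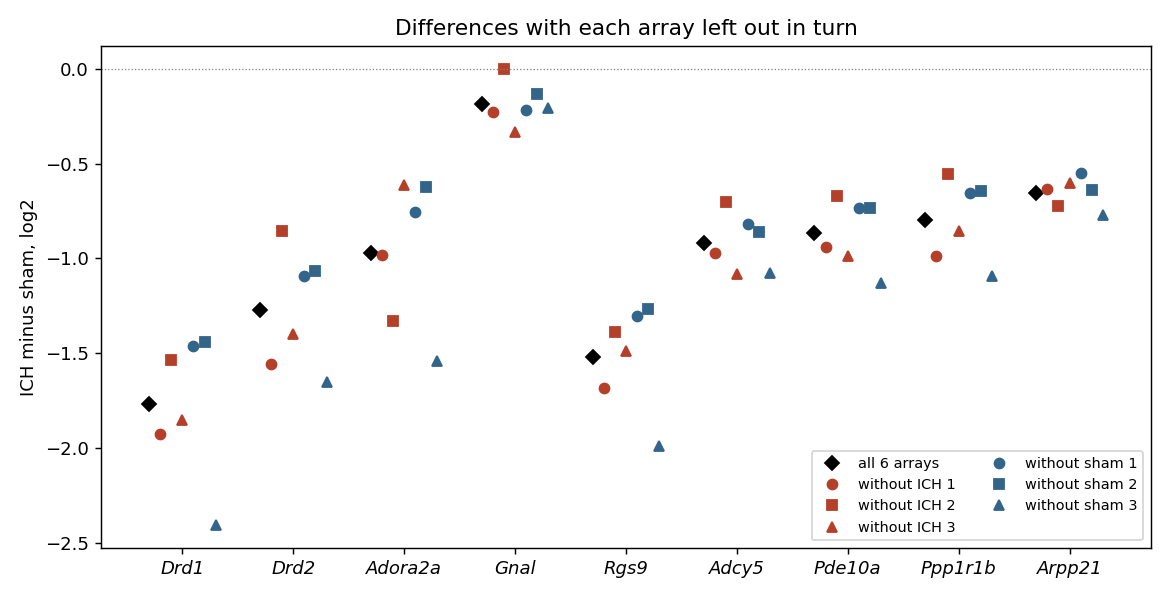
ICH minus sham on the log2 scale (y axis) for each of the 9 genes with all 6 arrays (black) and with each ICH array (red) or sham array (blue) left out, symbols giving the replicate number. Leaving out sham 3 gives the lowest value for 7 of the genes, with Drd1 at −2.41, and Gnal lies at 0.00 without ICH 2.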

How the data were processed

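Cy3-labelled material from total RNA of rat brain was read on 1-colour arrays. Per the file headers, the authors' intensity values are background-subtracted signals of Agilent Feature Extraction 11.5.1.1 (10.7 in the submitters' processing notes), without normalization across arrays. The deposited log2 values equal, within 0.001 for 98.29% to 99.16% of rows per array, the mean log2 signal of a probe's spots minus a constant per array, with column medians of −2.77 to −2.61 and a 75th percentile of 0.00; direction and scale follow from this match. Other columns used, per the file headers, hold marks of 0 or 1 per spot (well above background, saturated, not uniform). Further columns hold the error of the signal and the median spot and background signals. All were deposited with the signals. All arrays share 1 slide and 1 scan. The 3 arrays of a group limit the precision.

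Probes were named through RefSeq transcripts of GRCr8, used for names: 18355 of 30367 probes had 1 symbol, 0 several and 12012 none. The 24650 probes with at least 0.5 of their spots well above background on at least 3 arrays were fitted with limma 3.58.1 in R 4.3.3 (lmFit, eBayes, 6.17 degrees of freedom, no covariate). A gene was represented by its brightest probe. Tables and figures used Python 3.11.15, numpy 2.4.6, pandas 2.3.3 and matplotlib 3.10.9. Tested on simulated data, the ICH minus sham fit on 24650 probes recovered 29.2% of probes changed 2-fold and 68.6% changed 4-fold. The simulated noise was normal and independent between probes, with each probe's own SD. The members varied together across arrays, so these rates need not hold for them. The members and lists were chosen with earlier results of these data known. Genes were named by rule: all members, the 2 genes of each pathway list with the lowest unadjusted p plus Penk, Tac1, Pdyn, Gng7 and Pde1b, the 2 brightest markers of cell types, and the 10 genes most like the members. Drd3 and Ptpn5, also in the rule, were not used here, some other genes it names are not reported here, and for cell types on which no result turns only list values are given. Alternatives covered the signal source, background correction, scaling, filter, probe choice, variance, blocks and arrays left out.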

Additional observations from a re-analysis of the deposited data

How the results depend on the processing

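The members' median difference, −0.92, stayed below 0 under all 19 alternatives, from −1.15 to −0.54, and 0 members were called under any of them. Leaving out each array gave medians of −1.13 to −0.72. Of the single genes, only Gnal changed sign, at 0.19 with spike-in centring, added after the data were examined, and 0.001 without ICH 2, in a range of −0.33 to 0.001 with an array left out. Spike-in centring moved the median of all probes to 0.34, from −0.04, so directions are relative to the typical gene. All ICH values lay below all sham values for 5 members as reported (16.7% of all probes), 8 with centring on neuron markers (25.9%), 3 with spike-in centring (2.6%), 3 with the mean of a gene's probes (16.4%), and 5 to 8 with an array left out (19.0% to 24.0%). Over all probes, limma called 0, against 3 with normexp background correction, 2 with neuron centring, 4 with spike-in centring, 4 with probes above background on all 6 arrays, 4 with an intensity trend and robust variance, and 0 to 31 with an array left out, highest without ICH 3. Unadjusted calls were 3699, and 1537 without sham 1, 2273 without sham 2, 1970 without sham 3 and 4955 without ICH 2. A block for slide row gave 3016, with 1 member at that p, against 6 as reported. Median centring left 2464 of 3696 unadjusted calls lower, against 2175 of 3699, and spike-in centring 295 of 4094. With the replicate number as a block, 0 probes were called, 2754 had an unadjusted p under 0.05 and the members' median was −0.92. Same-numbered arrays correlated at −0.19, −0.01 and 0.07 in their deviations, and 2 of 6 arrays correlated best with their own number. No pairing by number was seen, though 3 arrays per group are too few to exclude it. The difference between Drd1 and the indirect-pathway receptors lay between −0.85 and −0.44 under the 9 alternatives run for it. Normexp used the median spot signal.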
